A study of Ambystoma mexicanum and Ambystoma andersoni and Ambystoma maculatum with 18 samples.

Results

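In the forelimb tip of axolotl larvae (Ambystoma mexicanum), 256 assembled transcript features were near zero at amputation and present in every library 24 h later. They were chosen by their counts: at least 10 in each of the 3 libraries at 24 h, and 3 or fewer in total over the 3 libraries at 0 h. The axolotl table held 898057 features, of which 33171 had at least 10 counts in each 24 h library, and the switched-on features were 0.772% of these. The choice used the 24 h against 0 h contrast, so the difference between the times is a description and was not tested.

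Forelimbs were amputated halfway along the zeugopod (the lower arm), and a 1 mm piece of the tip was collected 24 h later or at once (0 h). Each axolotl library pooled tissue of 5 larvae. No strain, genotype, age or drug is given in the sources used here, and the 0 h tissue was also cut. The spotted salamander, A. maculatum, and A. andersoni were sampled in the same way, for 6 groups of 3 libraries and 18 libraries in all.

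As background, an amputated salamander limb is first closed by migrating epidermis, while blood cells enter the stump and the tissue beneath begins to break down. Wound epidermis, inflammation and matrix remodelling dominate the time before a blastema, the growth zone of the new limb, forms. The feature IDs carry no gene name. None of the 256 was found among the IDs of the RefSeq gene table (0 matched), so no feature here is assigned to a gene, a protein, a cell type or any of these processes, and no sequence is shown. The labelled tissue could not be checked against marker genes for the same reason. Tissue was taken whole, so more cells of a type and more RNA per cell cannot be told apart.

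Axolotl libraries held 16827429 to 23220259 expected counts at 24 h and 19440464 to 23412930 at 0 h. Expected counts share out a read that matches more than 1 feature, so values of near-identical features are uncertain. The third 0 h library stood apart. Over the 29901 features averaging 1 CPM or more (counts scaled by TMM library size), its Pearson r of log2(CPM + 1) was 0.773 with the first 0 h library and 0.711 with the second, while those correlated at 0.966. Correlations of the second 24 h library with those 0 h libraries were 0.883 each, against 0.767 to 0.823 for the other 24 h libraries. The second 24 h library correlated more with its own time, at 0.908 with 24 h library 1 and 0.924 with 24 h library 3. For 0 h library 3, r was 0.845, 0.747 and 0.812 with 24 h libraries 1, 2 and 3. It was thus closer to 24 h libraries 1 and 3 than to either other 0 h library. With 24 h library 2, its r lay between its values with the other 0 h libraries. The cause was not tested. These correlations are across features within this set of libraries and are given without a test.

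The switched-on features were low in abundance and few in counts. In the first 24 h library their counts ran from 10 to 219 with a median of 18, in the second from 10 to 499 with a median of 18, and in the third from 10 to 508 with a median of 28. In each 0 h library the median was 0 and the highest count 3. The choice itself keeps the times from overlapping. Together the features took 6812, 8160 and 11188 counts in the 24 h libraries, against 85, 97 and 182 in the 0 h libraries. That was 0.0418% ± 0.00746 of all counts at 24 h and 0.000578% ± 0.000311 at 0 h (SD, n = 3 libraries each).

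**Figure D1:**
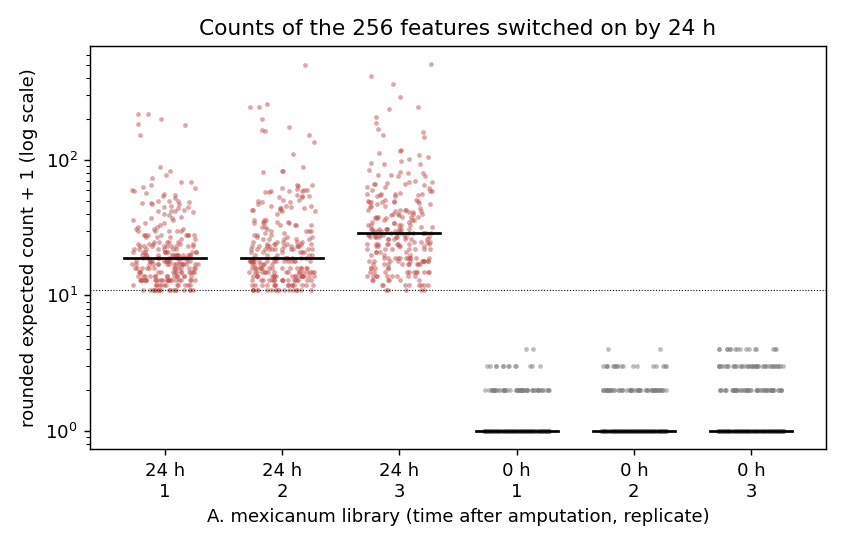
Rounded expected count plus 1, on a log axis, of each of the 256 features (points) in the 3 libraries at 24 h and the 3 at 0 h, with the median as a bar and the minimum of 10 counts as a dotted line. The 24 h medians are 18, 18 and 28 counts and the third 24 h library sits highest, while the 0 h libraries hold 0 to 3 counts of any feature.

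At 0 h, 75 of the features had no count in any library, 53 had 1 count in all, 73 had 2 and 55 had 3. The third 0 h library held 182 of their 364 counts at 0 h, although it made up 26.6% of the TMM library sizes at 0 h. It had a count of 109 of the features, against 68 in the first and 75 in the second 0 h library. For the 75 features without a count at 0 h, the fold is a lower bound set by a floor of 3 counts over the 0 h group. These bounds ran from at least 10.8-fold to at least 302-fold, with a median of at least 26.7-fold. For the 181 features with 1 to 3 counts, the ratio of summed counts per summed library size ran from 11.1 to 860 with a median of 37.2. The lowest lower end of their 95% counting intervals was 3.49. The rule chose the features on these same counts. Such intervals, here and below, take no account of that and are not support for a rise. These ratios used the counts at 0 h and the bounds used the floor, so their medians are not on the same scale.

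The feature that took most CPM at 24 h was Ax_TR94566_c0_g1, with 219, 199 and 508 counts in the 24 h libraries and 0 in each 0 h library. Its mean was 14.8 ± 7.99 CPM at 24 h (SD, n = 3), at least 302-fold higher than at 0 h. The third 24 h library was the highest and the second the lowest of the 3. Next came Ax_TR453533_c0_g1, with 217, 247 and 415 counts at 24 h and 0, 0 and 1 at 0 h. It averaged 14.0 ± 4.80 CPM at 24 h (SD, n = 3), and the pooled ratio to the single count at 0 h was 860 with a 95% counting interval of 154 to 33990. With the floor of 3 counts used for both features, its log2 fold was 8.16, against 8.24 for the first feature. Ax_TR453533_c0_g1 too was highest in the third 24 h library. The files give no feature lengths, so CPM orders features by the counts they took and not by RNA level.

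The features ranked 3 to 10 by mean CPM at 24 h averaged 12.4 down to 5.35 CPM at 24 h and differed in how the 24 h libraries shared them. The third-ranked feature had 179, 245 and 361 counts at 24 h and none at 0 h. The fourth had 82, 499 and 147 counts at 24 h and none at 0 h, so most of its counts came from the second 24 h library. Other features of the fourth feature's component held 2288 counts over the 0 h libraries, and their summed CPM differed by a log2 of -0.09 between 24 h and 0 h. The fifth had 184, 134 and 292 counts at 24 h and 2 at 0 h, both in the third library. The sixth had 201, 164 and 235 counts at 24 h and none at 0 h, which made it the most even of these features across the 24 h libraries.

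Ranks 7 to 9 formed a contrast to the sixth, being lowest in the first 24 h library. The seventh had 44, 259 and 245 counts at 24 h and 1 at 0 h. The eighth had 62, 165 and 161 counts at 24 h and 2 at 0 h, and the ninth 23, 175 and 187 counts at 24 h and 2 at 0 h. The first 24 h library was also the shallowest, and it was the lowest of the 3 in CPM too for these features, with 1.35, 7.08 and 8.70 CPM for the ninth. In CPM the third 24 h library was the highest for all of ranks 7 to 9. The tenth ran the other way, with 152, 43 and 116 counts at 24 h and 3 at 0 h. The 10 features with the most summed 24 h counts, not quite the same set as the first 10 by CPM, held 23.7% of the 24 h counts of all 256.

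Most of the switched-on features lay near the thresholds. The lowest 24 h count was 10 to 14 in 129 of them, at least 20 in 59, at least 50 in 11 and at least 100 in 5. Just inside the 24 h limit, 36 features had a lowest count of 10, with a median highest count of 21. Just outside it, 46 features met the 0 h limit but had a lowest 24 h count of 9, with a median highest count of 17. At the 0 h limit, 55 features had 3 counts and 63 features outside had 4, and the median lowest 24 h count was 14 in both.

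The share of switched-on features was smaller in each higher band of 24 h abundance. Of the 4688 features below 1 CPM at 24 h (with at least 10 counts in each 24 h library), 109 were switched on, which is 2.33%. The share was 1.43% of 7009 features from 1 to 2 CPM, 0.468% of 7686 from 2 to 5 CPM and 0.154% of 7126 from 5 to 15 CPM. None of the 6662 features at 15 CPM or more was switched on, and the lowest count of any of them over the 0 h libraries was 4. The limit of 3 counts is a smaller part of the 24 h level for abundant features, so the rule asks a larger fold of them.

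How far the pattern held in a library that took no part in the choice was described by leaving libraries out. The rule was applied to 5 libraries at a time, and the features so chosen were looked up in the sixth. Of 415 features chosen without the first 24 h library, 386 (93.0%) were higher in CPM there than in every 0 h library. Of 477 chosen without the second 24 h library, 448 (93.9%) were, and of 307 chosen without the third, 299 (97.4%). Among all features with at least 10 counts in the other 24 h libraries the shares were 30.1%, 28.2% and 30% in the same order. The chosen features are held near 0 at 0 h by the rule and so need only a few counts to pass, while the others were not chosen on 0 h counts, so the gap between the shares follows in large part from the choice and is not support for the switch. The left-out library reached 10 counts in 61.7%, 53.7% and 83.4% of the chosen features, against 90.5%, 92.2% and 94.8% of the features chosen on the 24 h libraries alone. The latter were not matched to the former in level.

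The left-out 24 h libraries differed in how far they followed the other 24 h libraries. The median of the chosen features was 73.7% of the mean CPM of the other 24 h libraries when the first was left out, 42.8% for the second and 118% for the third. Over all features with at least 10 counts in the other 24 h libraries, these medians were 95.1%, 89.5% and 96.7%. Those features were not matched in level to the chosen ones, many of which lay near the minimum in the libraries used. A shortfall against them is thus not read as a trait of the switched-on features. The median was lowest for the second 24 h library.

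At 0 h, the third library followed the others least. Of 402 features chosen without the first 0 h library, 396 (98.5%) were lower there than in every 24 h library. Of 421 chosen without the second, 404 (96.0%) were. Of 688 chosen without the third, 575 (83.6%) were. Among all 33171 features with at least 10 counts in each 24 h library the shares were 38.9%, 42.8% and 42%. Those were not chosen for low counts in the remaining 0 h libraries, so this gap too follows in large part from the choice, and only the left-out libraries are compared here. The median left-out count was 1 in the first, 1 in the second and 4 in the third 0 h library. Counts of 10 or more appeared in 12, 32 and 196 of the chosen features, and the highest single count was 851, in the third. The 432 features kept out by the third 0 h library alone had a median of 9 counts there, and 113 of them were at or above the lowest 24 h library in CPM.

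**Figure D2:**
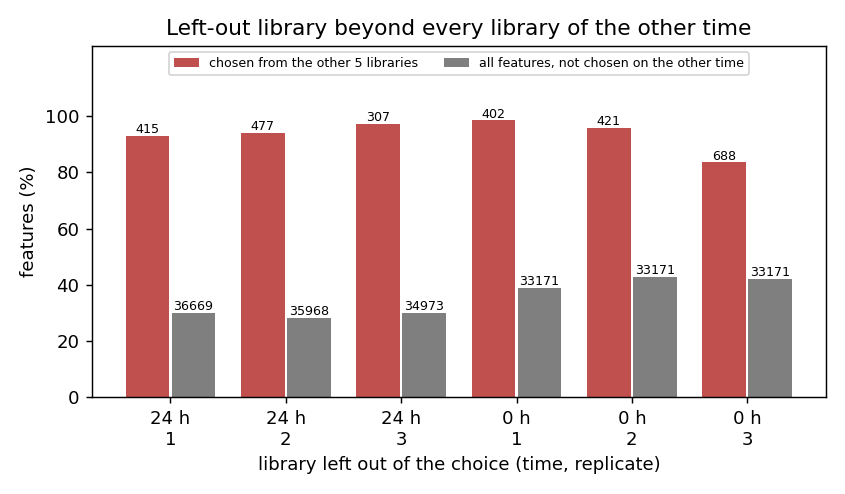
Share of features (%, bars from 0) whose CPM in the left-out library lay above every 0 h library (24 h libraries left out) or below every 24 h library (0 h libraries left out), for features chosen from the other 5 libraries (red) and for all features with at least 10 counts in the 24 h libraries used (grey); numbers over the bars are features. The red bars run from 83.6% to 98.5%, lowest for the third 0 h library, and the grey bars from 28.2% to 42.8%.

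Among the 24 h libraries the switched-on features were weighted to the third and away from the second. CPM was highest in the third 24 h library for 132 features (51.6%), in the first for 94 (36.7%) and in the second for 30 (11.7%). Among the 33171 features with at least 10 counts in each 24 h library the shares were 27.3%, 36.1% and 36.6%. The second 24 h library was the lowest for 165 of the 256 (64.5%), against 42.6% of the 33171. Between the third and second library the median log2 ratio was 0.68 (quartiles 0.19 to 1.26) over the switched-on features and 0.05 over the 33171. Between the third and first it was 0.14 against 0.00. The second 24 h library was also, of the 24 h libraries, the most correlated with 0 h libraries 1 and 2, at 0.883 each, and the part of this in the order was not tested. The minimum of 10 counts weighs most on the shallowest library, the first, so the order is not wholly free of the choice. In the second, the largest in TMM size, 10 counts were 0.404 CPM, against 0.585 CPM in the first. The same minimum held for the 33171 features, and its part in the order was not tested. The 33171 features were not matched to the switched-on features in level.

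**Figure D3:**
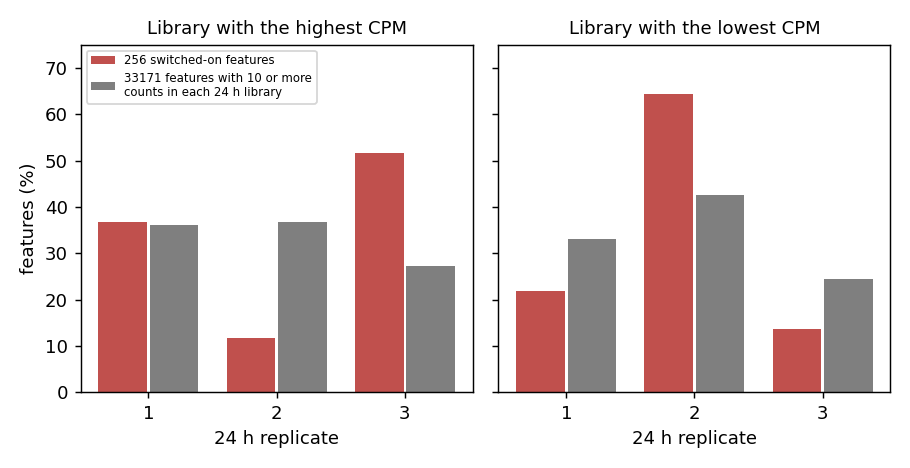
Share of features (%, bars from 0) whose highest (left) or lowest (right) CPM among the 24 h libraries fell in replicate 1, 2 or 3, for the 256 switched-on features (red) and for the 33171 features with at least 10 counts in each 24 h library (grey). The red bars put 51.6% of highest values in replicate 3 and 64.5% of lowest values in replicate 2.

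The spread between the 24 h libraries was wide, and its median was larger in the bands above 1 CPM than below. The coefficient of variation (CV, SD over mean of the 3 libraries) had a median of 38.7% over the 256 features (quartiles 25.7% to 54.3%) and of 26.8% over the 32915 others with at least 10 counts in each 24 h library (15.9% to 40.9%). Below 1 CPM the medians were 28.9% and 27.8%. From 1 to 2 CPM they were 43.7% and 33.5%, from 2 to 5 CPM 55.5% and 30.4%, and from 5 to 15 CPM, with 11 switched-on features, 53.9% and 23.6%. Single features ranged from 3.84% to 115%, and 41 had a CV of 20% or less. Each library is a pool of 5 larvae, so the CV is between pools. Near the minimum of 10 counts the choice cuts off low values and narrows the CV, and counting error adds to it.

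**Figure D4:**
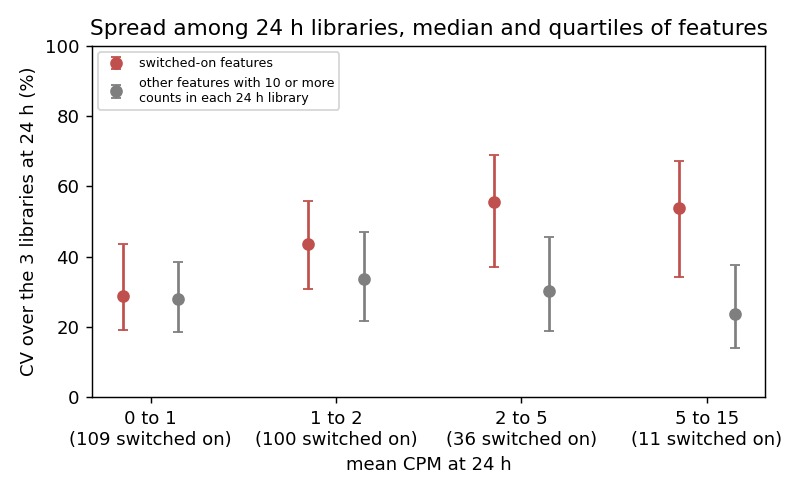
Coefficient of variation over the 3 libraries at 24 h (%), by mean CPM at 24 h, as the median (point) and quartiles (bars) of the switched-on features (red) and of the other features with at least 10 counts in each 24 h library (grey). The red medians are 28.9%, 43.7%, 55.5% and 53.9% from the lowest to the highest band, and the grey ones 27.8%, 33.5%, 30.4% and 23.6%.

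Few of the switched-on features came from the same part of the assembly. An ID names a cluster, a component within it and a feature within the component. The 256 features lay in 250 components, and 4 components held more than 1 of them, 10 features in all. A feature was the only one of its component in 113 cases (44.1%, against 33.5% of the 32915 others). In 45 cases (17.6%, against 9.30%) the other features of the component held 3 counts or fewer in total at 0 h. In the remaining 98 cases (38.3%, against 57.2%) other features of the component held more than 3 counts at 0 h, and in 60 of these they held more than 30. Counted over the whole cluster, in 148 cases (57.8%, against 74.4%) other features of the cluster had more than 3 counts at 0 h. Features of a component need not belong to 1 gene, and whether they do was not tested.

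**Figure D5:**
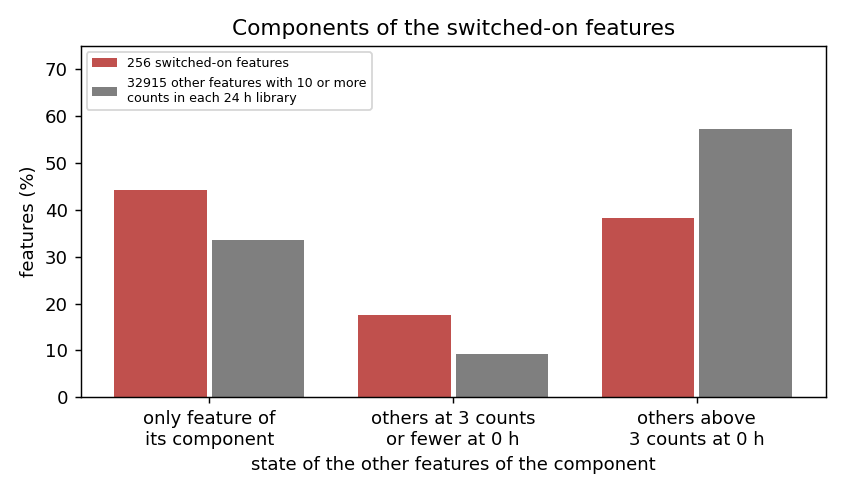
Share of features (%, bars from 0) by the state of the other features of their component at 0 h, for the 256 switched-on features (red) and the 32915 other features with at least 10 counts in each 24 h library (grey). The red bars are 44.1%, 17.6% and 38.3% and the grey bars 33.5%, 9.30% and 57.2%.

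Where the rest of the component was already present at 0 h, it was at least 2-fold higher at 24 h for 41 of 98 features, which lay in 37 of 94 components. One component with 4 switched-on features counts 4 times among the 41. The rest of a component includes its other switched-on features, which the rule chose to be higher at 24 h. Among the switched-on features this applies to at most 10, in 4 components. Over the 98 such features, the summed CPM of the other features of the component changed by a median log2 of 0.72 between 24 h and 0 h (quartiles -0.41 to 2.64). For the 18843 other features of this kind it was -0.06 (quartiles -0.52 to 0.45). Those 41 were 41.8% of the 98, against 12.3% of the others, and the rest of the component was at least 2-fold lower at 24 h for 14 (14.3%, against 10.5%). These ratios used a pseudocount of 0.1 CPM. Reads divided between features of a component can tie their values together. At 24 h, 63 of the 256 features (24.6%) had an expected count that was over 0.001 away from a whole number in at least 1 library, a sign of divided reads, against 24.7% of the 32915 others. The share was 4.42% of the 113 features alone in their component, 40.0% of the 45 and 40.8% of the 98.

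The component with the most switched-on features held 4 of them among its 8 features. Summed, the 4 had 131, 67 and 232 counts in the 24 h libraries and 4, 6 and 0 in the 0 h libraries. The most abundant feature of the component was present at both times, with 2447, 1838 and 5076 counts at 24 h and 747, 823 and 130 at 0 h. The 4 together came to 5.35%, 3.65% and 4.57% of that feature's counts at 24 h, against 0.535%, 0.729% and 0% at 0 h. The rule held the 4 low at 0 h but did not choose the abundant feature, so this shift follows in large part from the choice. The 0% is set against only 130 counts. In counts the third 24 h library was highest and the second lowest for each of the 4 and for the abundant feature. In CPM the second was lowest for each of the 4, and the third highest for all but the one with the fewest counts, in which the first was highest. The third 0 h library was the lowest of the 0 h libraries for the abundant feature, and held none of the 4.

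Across the whole axolotl table the edgeR quasi-likelihood test called 517 of 42641 tested features higher at 24 h, 1.21%. Of the 256 features, 234 passed its filter on low counts, and 76 of those were called at a Benjamini-Hochberg adjusted p of 0.05. The DESeq2 test called 232 of the 234, against 6.24% of all features tested. Since the rule used the same contrast, nothing is read from these counts. They depended on single libraries: without the third 0 h library edgeR called 244 of 256, against 7.07% of all tested. Without 1 of the remaining 5 libraries, whichever it was, edgeR called none of the 239 to 256 tested. It also called none of all 46829 to 48314 features tested in these fits. An unadjusted p under 0.05, higher at 24 h, was found for 235 to 254 of the switched-on features and 3488 to 5046 of all. DESeq2 called 128 to 206 of the switched-on features higher, against 884 to 1962 of all.

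The reverse pattern was rare in the axolotl. With the times exchanged, 9 features had at least 10 counts in each 0 h library and 3 or fewer in total at 24 h, against 256 switched on. Without the third 0 h library the numbers were 688 on and 166 off, so the ratio of on to off moved to 4.14, against 28.4 with all libraries. Leaving out any library loosens the rule and lowered this ratio. Without 24 h libraries 1, 2 and 3 the numbers were 415 on and 27 off, 477 and 51, and 307 and 36. They were 402 on and 26 off without the first 0 h library, and 421 and 33 without the second. The same rule gave 78 on and 105 off in A. andersoni, and for A. maculatum 41 on and 526 off. On features were 0.772% (axolotl), 0.288% (A. andersoni) and 0.284% (A. maculatum) of those with at least 10 counts in each 24 h library. Off features were 0.0319%, 0.380% and 2.18% of those with at least 10 counts in each 0 h library, in the same order. Depth outside the most abundant feature was lower at 24 h in A. maculatum, while the ranges of the times overlapped in the other species. Outside the most abundant feature, libraries of A. andersoni held 7988574 to 10847793 counts at 24 h and 8635597 to 14528373 at 0 h. Those of A. maculatum held 4469984 to 7079066 counts at 24 h and 9304141 to 11752817 at 0 h. In the axolotl the ranges were 13855640 to 19619156 at 24 h and 13378181 to 18299866 at 0 h. Counts were then scaled within each species to its mean total outside that feature, which leaves the depth difference between species in place. So scaled, the rule gave 187 on and 12 off in the axolotl and 88 on and 75 off in A. andersoni. In A. maculatum it gave 83 on and 256 off. Scaled instead to the mean library total, it gave 219 on and 7 off in the axolotl and 84 on and 71 off in A. andersoni. For A. maculatum that scaling gave 38 on and 452 off. Features are not matched between species, and the difference between species was not tested.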

How the data were processed

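RNA from the limb tip was sequenced in 18 libraries, and the 6 axolotl libraries were used for all but the counts by species. The authors deposited expected counts for each assembled feature, made with RSEM per the labels. The RSEM version, aligner and assembly were not given in the sources used here. Libraries were made with a TruSeq kit, aiming at about 50000000 pairs of 100 bp reads, per the labels' protocols. Expected counts were rounded, and 0 columns were left unused.

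The 256 features, the rules and the tests were chosen with earlier results of these data known. CPM used TMM sizes from edgeR 4.0.16 (R 4.3.3) after filterByExpr (minimum count 10, minimum total 15); the test was the older quasi-likelihood F test with Benjamini-Hochberg adjustment over all tested features, time as the only term, tested on simulated data. DESeq2 1.42.0 was an alternative. The p-values measure only the spread between these pools; replicate numbers follow accession order. The IDs printed are the 2 switched-on features with the highest mean CPM at 24 h. Counting intervals (95%, exact) and floors cover counting error only, and take no account of the choice of features on the same counts.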

Additional observations from a re-analysis of the deposited data

How the results depend on the processing

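No paired analysis was possible because the labels give the libraries no replicate numbers. The number of switched-on axolotl features, 256, was 75 with 0 counts at 0 h required, 791 with up to 10 allowed, 902 with at least 5 counts in each 24 h library and 59 with at least 20. It was 250 without rounding, 219 with counts scaled to equal totals and 187 scaled to equal totals outside the most abundant feature. Leaving out 1 library gave 307 to 688, the last without the third 0 h library; the rule then asks less, since fewer libraries must meet it. The reverse pattern, 9 features, numbered 26 to 166 in the same way. In A. andersoni leaving out 1 library gave 108 to 210 on and 122 to 199 off. In A. maculatum it gave 55 to 74 on and 592 to 1875 off, and equal totals outside the most abundant feature gave 83 on and 256 off.

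The switched-on features called higher, 76 with edgeR, numbered 67 with DESeq2 size factors, 178 with the newer quasi-likelihood method, 232 with DESeq2 and 245 with no filter on low counts. Over all features, 517 with edgeR, the counts were 463, 912, 2652 and 2368. Leaving out 1 library gave 0 to 244 of the switched-on features and 0 to 3395 of all features with edgeR. With DESeq2 it gave 128 to 254 and 884 to 5306. These DESeq2 settings were chosen after seeing the data. So were all settings for the reverse pattern and the other species, and the axolotl number at equal totals outside the most abundant feature. Leaving out 1 library for the share of counts and for components was also chosen then. Without the first 0 h library DESeq2 gave no adjusted p for 81 of the 256, and for 8431 of all 48300 tested. The cause of these differences was not tested.

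The share of 24 h counts in the switched-on features, 0.0418%, was 0.0499% once the most abundant feature was set aside and 0.0147% for the 75 features with 0 counts at 0 h. Without 1 of the 24 h libraries it was 0.0378% to 0.0452%. Features whose component held another feature present at 0 h numbered 98, 60 with more than 30 counts required, and 81 to 90 without 1 of the 0 h libraries. With 0 h at the floor of 3 counts, the log2 fold of Ax_TR94566_c0_g1 was 7.53 to 8.61 without 1 library and that of Ax_TR453533_c0_g1 7.46 to 8.41. Depth limits the features near 10 counts most.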
